A study of Sus scrofa with 75 samples.

Results

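The miR-15, miR-16 and miR-195 family was followed in porcine peripheral blood mononuclear cells (PBMCs), the lymphocyte and monocyte fraction that a density gradient separates from whole blood. The members were taken by name, as mature miR-15a, miR-15b, miR-16, miR-195 and miR-497, and for each name the table entry with the most reads was kept. All 5 were listed among the 457 mature names of the miRNA count table, and 3 of them, miR-15a, miR-15b and miR-16, passed the filter on low counts that left 209 miRNAs for testing. The libraries came from 13 synthetic Large White pigs, each bled on day 11, day 20 and day 56 after birth, which gave 39 small RNA libraries. Control pigs (n = 8) were kept in farrowing crates without soil, and topsoil pigs (n = 5) received fresh topsoil every day from day 4 until day 20. The piglets bled were those of median weight in their litters. At day 20 all pigs were weaned into a nursery without soil, so at day 56 the topsoil pigs had been off soil since weaning. Each library is bulk RNA of 1 pig at 1 age, so fewer cells of a type and less RNA per cell cannot be told apart.

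MicroRNAs guide the silencing complex to messenger RNAs, chiefly by pairing of the seed, bases 2 to 8 from the 5′ end. Members of the miR-15/16 family carry the same seed and are known for restraining cyclins, cyclin-dependent kinases and the survival factor BCL2, and in lymphocytes for limiting proliferation. The family is made from clusters in which 2 hairpins lie side by side and are transcribed together.

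The mature sequences are shown to let the members be compared, read from the Sscrofa11.1 genome at the positions of the RefSeq annotation, 5′ to 3′, with the seed in capitals.
miR-15a: uAGCAGCAcauaaugguuugu
miR-15b: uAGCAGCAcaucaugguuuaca
miR-16: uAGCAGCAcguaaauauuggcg
miR-195: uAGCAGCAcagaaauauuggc
miR-497: cAGCAGCAcacugugguuugu
All 5 members held the seed AGCAGCA and differed only outside it. Aligned from the 5′ end without gaps, miR-15a and miR-15b were equal at 18 of 21 positions, and miR-16 and miR-195 at 19 of 21. Across those pairs, miR-15a and miR-16 were equal at 15 of 21 positions, and miR-16 and miR-497 at 11 of 21. Of the 457 mature names, 369 were matched to the annotation by their mature identifier, and among these the 5 members were the only ones with the seed's first 6 bases. miR-424-5p, miR-503 and miR-6782-3p were not among those matched.

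The hairpins lie in 3 clusters on Sscrofa11.1. MIR15A (chromosome 11, 17757463 to 17757541, plus strand) and the first copy of the miR-16 hairpin, named MIR16-2 in the annotation (chromosome 11, 17757606 to 17757684, plus strand), are 64 bases apart, and no other annotated gene overlaps either of them. MIR15B (chromosome 13, 100083172 to 100083269, plus strand) and the second copy, named MIR16-1 (chromosome 13, 100083329 to 100083405, plus strand), are 59 bases apart, both in intronic sequence of SMC4, which encodes a condensin subunit, on the same strand. MIR195 (chromosome 12, 52422039 to 52422118, minus strand) and MIR497 (chromosome 12, 52422329 to 52422408, minus strand) are 210 bases apart in intronic sequence of the long noncoding RNA LOC102161115. The miR-16 hairpins are shown because both give 1 mature sequence, here in capitals.
MIR16-2, chromosome 11: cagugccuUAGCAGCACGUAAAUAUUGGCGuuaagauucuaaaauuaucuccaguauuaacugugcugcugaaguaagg
MIR16-1, chromosome 13: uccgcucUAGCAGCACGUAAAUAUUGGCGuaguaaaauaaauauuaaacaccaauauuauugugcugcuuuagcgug
A read of mature miR-16 therefore cannot be assigned to either locus. The table held an entry for each copy, with 862802 and 862845 reads over the 39 libraries, equal in 10 libraries and never more than 84 reads apart, and the larger was used as the level of miR-16.

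Library totals ranged from 2570910 to 14311898 counts over all entries, with a median of 11850130. miR-486, a miRNA of the red cell lineage, took 11.8% to 95.5% of the reads (1 entry per name), so levels are given as CPM, the count per 1000000 reads of a library size scaled by the 75% quantile of the tested miRNAs, and beside that as RPM without miR-486, the count per 1000000 reads other than miR-486. The day 56 library of control replicate 7 was the shallowest (2570910 counts) and stood apart for miR-15a, so results that rest on it are also given without that pig. Groups follow the treatment, age and pig number in the column names, which match the submitters' descriptions. The samples' characteristics gave the same treatment for 19 of the 39 libraries, the same age for 14 and both for 6. The 3 ages of a pig are repeated samples of 1 animal, and the pigs of a treatment are its replicates.

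miR-16 made up most of the family in every library. Of the family's reads, 91.9% were miR-16 (range over libraries 78.9% to 95.7%), 4.56% were miR-15b (2.53% to 14.7%) and 3.51% were miR-15a (1.44% to 18.5%). By total reads miR-16 ranked 17th of the 457 names, miR-15b 55th and miR-15a 61st. The whole family took between 0.385% and 2.34% of the reads other than miR-486, with a median of 0.882%. These are read shares, which also carry how well each sequence is captured in a small RNA library.

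**Figure D1:**
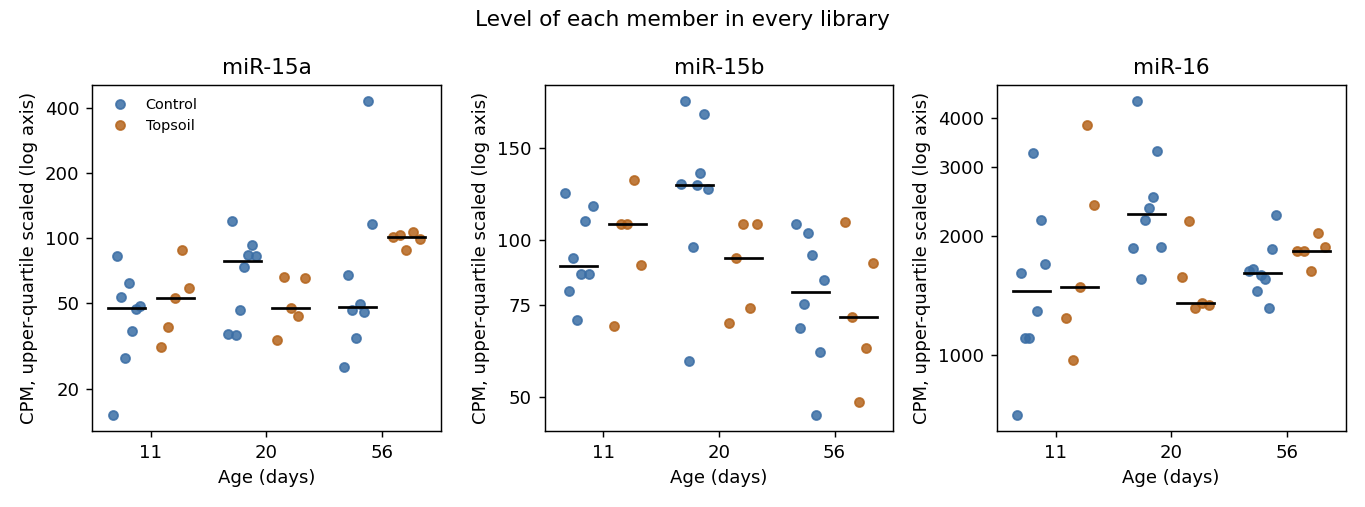
Level of miR-15a, miR-15b and miR-16 in every library, as upper-quartile-scaled CPM on a log axis, by age in days. Each point is 1 library of 1 pig (8 control and 5 topsoil per age) and black lines are group medians. The 5 topsoil libraries of day 56 lie close together for miR-15a, between 88.8 and 107 CPM, and 1 control library of day 56 stands at 435 CPM.

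miR-16, the member with the most reads, was between 701 and 4430 CPM in all 39 libraries. In control pigs it had a median of 1455 CPM at day 11 (701 to 3261), 2283 CPM at day 20 (1556 to 4430) and 1613 CPM at day 56 (1319 to 2269). In topsoil pigs 1 to 5 it was 1241, 971, 1489, 3850 and 2409 CPM at day 11, then 1580, 2184, 1316, 1355 and 1337 CPM at day 20, and 1837, 1834, 1632, 2044 and 1883 CPM at day 56. The groups overlapped at every age, and at day 11 the topsoil pigs 4 and 5 were the high ones. From day 11 to day 20 the level was higher in 7 of 8 control pigs and in 2 of 5 topsoil pigs. From day 20 to day 56 it was lower in 7 of 8 control pigs and higher in 4 of 5 topsoil pigs. In RPM without miR-486 these counts were 6 of 8 and 3 of 5.

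miR-16 was not called in any comparison of the edgeR fit of all pigs on the upper-quartile scale. In edgeR's quasi-likelihood fit with Benjamini-Hochberg adjustment over the 209 miRNAs (threshold 0.10), the change from day 11 to day 20 in control pigs was 0.68 (log2 scale, SE 0.25, adjusted p = 0.125), and 0 of 3 members were called there, against 5.26% of all miRNAs tested. At an unadjusted p under 0.05, miR-16 was the 1 member counted, among 34 of the 209 miRNAs. limma voom called it, among 28 of 209, while DESeq2 called no member and 17 of 209. From day 20 to day 56 miR-16 changed by -0.55 in control pigs (SE 0.25, adjusted p = 0.212 by edgeR), and it was called lower with DESeq2 (-0.58, adjusted p = 0.0989) and with edgeR on library totals without miR-486 (-0.81, adjusted p = 0.03996). In topsoil pigs the corresponding values were -0.22 (SE 0.33, adjusted p = 0.996) and 0.20 (SE 0.33, adjusted p = 0.768). At day 20 topsoil pigs stood 0.70 below control pigs on the log2 scale (log2 fold change -0.70, SE 0.30, unadjusted p = 0.0318, adjusted p = 0.323 by edgeR).

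miR-15a, transcribed next to a copy of miR-16, gave 1 of the family's 2 calls, and its levels in topsoil pigs at day 56 were close to each other. In control pigs the median was 47.7 CPM at day 11 (15.1 to 83.1), 78.3 CPM at day 20 (35.5 to 120.03) and 48.1 CPM at day 56 (25.4 to 435). In topsoil pigs 1 to 5 it was 31.4, 38.8, 53.2, 88.6 and 59.1 CPM at day 11, then 33.8, 66.02, 47.6, 43.5 and 65.8 CPM at day 20, and 101, 103, 88.8, 107 and 99.7 CPM at day 56. Every topsoil library of day 56 was above every topsoil library of day 20 and of day 11, though the gap to day 11 was narrow, 88.8 against 88.6 CPM. In RPM without miR-486 the topsoil ranges overlapped, with 394 to 505 at day 56, 135 to 419 at day 20 and 184 to 510 at day 11. Ranges lay apart and higher in the same way for 10.0% of the 209 miRNAs between topsoil day 20 and day 56, and for 11.0% between day 11 and day 56. The topsoil and control ranges of day 56 overlapped.

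The control maximum of day 56 was a single library. Control replicate 7 held 2814 reads of miR-15a, which were 18.5% of its family reads (95% exact binomial interval 17.9% to 19.1%, counting error only). Without that pig, control levels at day 56 ran from 25.4 to 117 CPM with a median of 46.5. The same pig had 47.0 CPM at day 11 and 93.7 CPM at day 20, inside the range of the other control pigs.

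Between day 11 and day 56, over all pigs, miR-15a rose by 0.83 on the log2 scale (SE 0.27, adjusted p = 0.0231 by edgeR's quasi-likelihood test). It was the 1 of 3 members called in that comparison, in which 25.4% of all miRNAs tested were called and their median change was 0.46 upward, so relative to that median miR-15a was higher by 0.36. Over the other 4 count scalings (TMM, library totals, library totals without miR-486, and DESeq2's size factors) and this one, the change itself ran from 0.53 to 2.75. The value relative to each scale's own median was between 0.36 and 0.45. Taking off the median removes most of what a scaling changes, so these 5 scales are not separate checks of it. That relative value rested in part on 1 pig, since it was 0.19 without control replicate 7 and 0.38 to 0.49 without any other pig, and without the pig block it was 0.83. The call was kept in each of the 13 fits that left out 1 pig (0.58 without control replicate 7, adjusted p = 0.0731), and it was lost on library totals without miR-486 (0.53, adjusted p = 0.218). By pig, the level was higher at day 56 than at day 11 in 5 of 5 topsoil and 5 of 8 control pigs. In RPM without miR-486 these counts were 4 of 5 and 3 of 8.

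By stage, the topsoil pigs' miR-15a changed by 1.06 from day 20 to day 56 (log2, SE 0.43, unadjusted p = 0.0208, adjusted p = 0.15) and was higher in 5 of 5 pigs. No member was called there, against 9.57% of all miRNAs tested, and DESeq2 and limma voom also called 0 members, among 35 and 36 of 209 miRNAs called. In control pigs the change over the same days was 0.06 (SE 0.33, adjusted p = 0.943), and 3 of 8 pigs were higher. Without control replicate 7 that control value was -0.36. From day 11 to day 20, miR-15a changed by 0.63 in control pigs (SE 0.32, adjusted p = 0.316) and by -0.10 in topsoil pigs (SE 0.42, adjusted p = 0.996). In topsoil pigs over those days 0 of 3 members were called by edgeR, against 0% of all miRNAs tested (0 of 209, with 6 at an unadjusted p under 0.05 and 5 called by DESeq2, no member among either).

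miR-15b, from the SMC4 intron, was lower at day 56 than at day 20 in most pigs. In control pigs its median was 89.3 CPM at day 11 (70.2 to 123), 127 CPM at day 20 (58.7 to 185) and 79.6 CPM at day 56 (46.1 to 107). In topsoil pigs 1 to 5 it was 68.4, 107, 107, 130 and 89.6 CPM at day 11, then 69.4, 92.3, 107, 73.9 and 107 CPM at day 20, and 108, 71.1, 48.9, 62.03 and 90.4 CPM at day 56. All groups overlapped. In control pigs the level fell between day 20 and day 56 by 0.70 on the log2 scale (SE 0.26, adjusted p = 0.0919 by edgeR's quasi-likelihood test), and was lower in 6 of 8 pigs. The sign turned on library totals with miR-486 included (0.19, adjusted p = 0.887). It was the 1 of 3 members called, where 12.4% of all miRNAs tested were called.

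That call stood close to the threshold. It was lost without control replicates 2, 5, 6, 7 or 8 and without topsoil replicates 2 or 5 (adjusted p up to 0.332, change -0.83 to -0.55), and with TMM scaling (adjusted p = 0.121). Over the 5 scales the change itself ran from -0.98 to 0.19. Relative to the median of all miRNAs in each fit, the value was between -0.70 and -0.64. Taking off the median removes most of what a scaling changes, so that narrow range does not bear on the call. In topsoil pigs the change over the same days was -0.30 (SE 0.34, adjusted p = 0.654), lower in 4 of 5 pigs, and -0.87 relative to the median of all miRNAs. Over all pigs from day 11 to day 56, miR-15b changed by -0.35 (SE 0.21, adjusted p = 0.257 by edgeR), while DESeq2 (-0.62, adjusted p = 0.0162) and edgeR on library totals without miR-486 (-0.66, adjusted p = 0.0304) called it lower. In the latter fit miR-15a was not called, so miR-15b was the 1 member called there in place of miR-15a, where 42 of all 209 miRNAs were called, 26 of them lower.

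The upper-quartile scale bears on miR-15b directly. Among the 209 tested miRNAs its rank by reads had a median of 55 per library (47 to 78), next to the miRNA whose count sets the scale, and in 4 of 39 libraries miR-15b was that miRNA, so that its CPM there was fixed by the scaling. In 25 of the 39 libraries its count lay within 0.5 on the log2 scale of that quantile. miR-15a set the scale in 1 library and lay within 0.5 of the quantile in 12, and miR-16 in 0 for both. In RPM without miR-486, where no such tie exists, the control median of miR-15b was 562 at day 11, 650 at day 20 and 349 at day 56, and the level was lower at day 56 than at day 20 in 7 of 8 control and 4 of 5 topsoil pigs.

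**Figure D2:**
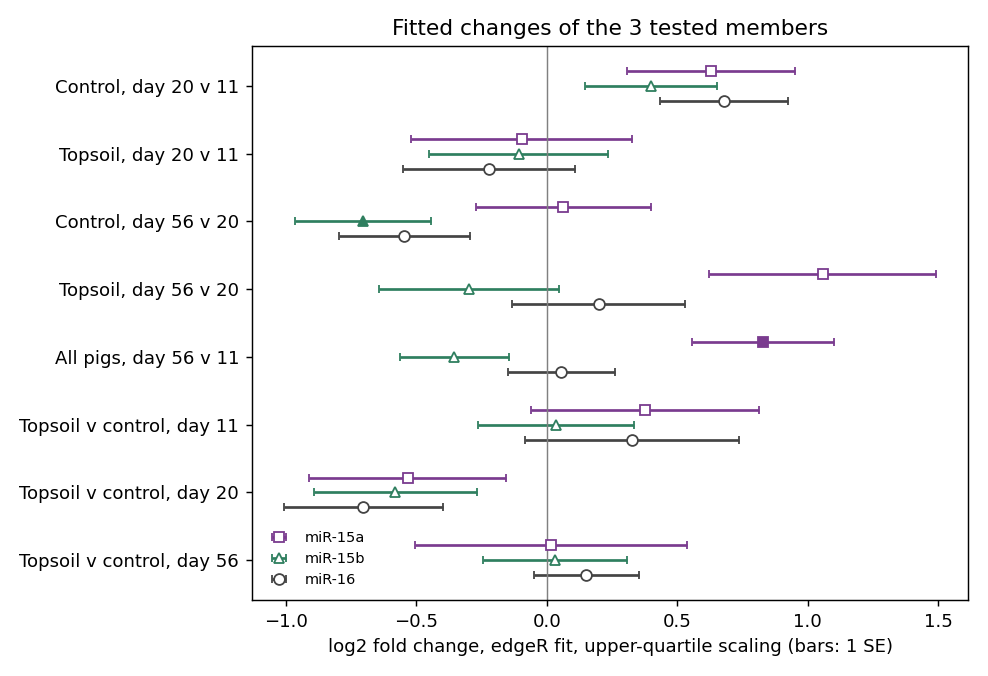
Fitted log2 fold change of miR-15a, miR-15b and miR-16 in 8 comparisons, edgeR fit with upper-quartile scaling, with bars of 1 SE. Filled symbols passed an adjusted p of 0.10, which only miR-15b in control pigs from day 20 to day 56 (-0.70, 0.19 on library totals) and miR-15a in all pigs from day 11 to day 56 (0.83) did.

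Treatment was compared by the interaction with age and at each of the 3 ages, and none of these called a member with edgeR. The treatment by age interaction, which asks whether the change with age differed between topsoil and control pigs, gave an unadjusted p of 0.0855 for miR-16 (adjusted p = 0.546 by edgeR), 0.169 for miR-15a and 0.471 for miR-15b. No member was called, against 0% of all miRNAs tested (0 of 209; 22 had an unadjusted p under 0.05, and limma voom called 2, neither of them a member). Between treatments at day 11, 0 of 3 were called, against 0% (0 of 209; 7 with an unadjusted p under 0.05, and 1 called by DESeq2). At day 20, 0 of 3 were called, against 0.957%, and at day 56, 0 of 3, against 0% (0 of 209; 5 with an unadjusted p under 0.05). In the day 20 fit all 3 members had values below 0 for topsoil against control, with -0.53 for miR-15a, -0.58 for miR-15b and -0.70 for miR-16, where the median of all miRNAs was -0.29. All 3 were below the median of the fit on each of the 5 scales, which are not separate checks, since the median carries most of what a scaling changes. Control pigs are shared by the comparisons at 1 age and over ages, so these values are not independent of each other.

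Ratios of members within a library depend on no scaling. Reads of 2 members of 1 library were divided, the ratios were compared by exact two-sided permutation tests (sign flips over pigs between ages, permuted treatments within an age), and p-values were adjusted over 15 such tests. Of these, 2 passed an adjusted p of 0.10, both between day 20 and day 56.

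The ratio of miR-15b to miR-15a fell after day 20. In topsoil pigs 1 to 5 it was 2.05, 1.40, 2.25, 1.70 and 1.63 at day 20 and 1.07, 0.688, 0.551, 0.578 and 0.907 at day 56, so that each pig was lower and the ages did not overlap. In control pigs the median went from 1.69 (1.504 to 3.54) to 1.31 (0.141 to 4.21), and 5 of 8 pigs were lower. Without control replicate 7 the control median hardly moved, from 1.65 at day 20 to 1.62 at day 56. Over the 13 pigs the mean change was -0.89 on the log2 scale (SD 1.12, exact permutation p = 0.00659, adjusted p = 0.0494). Without control replicate 7 it was -0.66 (SD 0.758, exact permutation p = 0.0132, adjusted p = 0.0659).

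The ratio of miR-16 to miR-15a fell as well. Topsoil pigs 1 to 5 had 46.5, 33.1, 27.6, 31.1 and 20.3 reads of miR-16 per read of miR-15a at day 20 and 18.1, 17.8, 18.4, 19.04 and 18.9 at day 56. Control pigs had a median of 36.1 (22.6 to 51.95) at day 20 and 29.99 (4.27 to 64.1) at day 56. Without control replicate 7 these control medians were 36.9 and 31.2. The ratio fell in 12 of 13 pigs, by 0.60 on the log2 scale on average (log2 change -0.60, SD 0.856, exact permutation p = 0.00537, adjusted p = 0.0494). Without control replicate 7 the change was -0.40 (SD 0.460, exact permutation p = 0.0107, adjusted p = 0.0659). The ratio of miR-16 to miR-15b changed by 0.29 over the same days (SD 0.615, exact permutation p = 0.115, adjusted p = 0.575).

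Between treatments no ratio differed in the full set of pigs, but 1 library decided this at day 56. With all 13 pigs, topsoil minus control at day 56 was -0.46 on the log2 scale for the ratio of miR-16 to miR-15a ( exact permutation p = 0.449, adjusted p = 0.693), and -0.69 for that of miR-15b to miR-15a (exact permutation p = 0.356, adjusted p = 0.693). The choice to leave out control replicate 7 came after seeing the data, and this pig held the lowest control value of both ratios. Without it, the first was -0.82 (exact permutation p = 0.00253, adjusted p = 0.0379) and the second -1.13 (exact permutation p = 0.0227, adjusted p = 0.0852). The 7 other control pigs had 19.4 to 64.1 reads of miR-16 per read of miR-15a at day 56, all above the 17.8 to 19.04 of the 5 topsoil pigs, so that the permutation p is the smallest that 7 against 5 pigs can give. For miR-15b to miR-15a the 7 control pigs ran from 0.715 to 4.21, which overlapped the topsoil pigs' 0.551 to 1.07. At day 11 and day 20 neither ratio passed, with or without this pig.

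**Figure D3:**
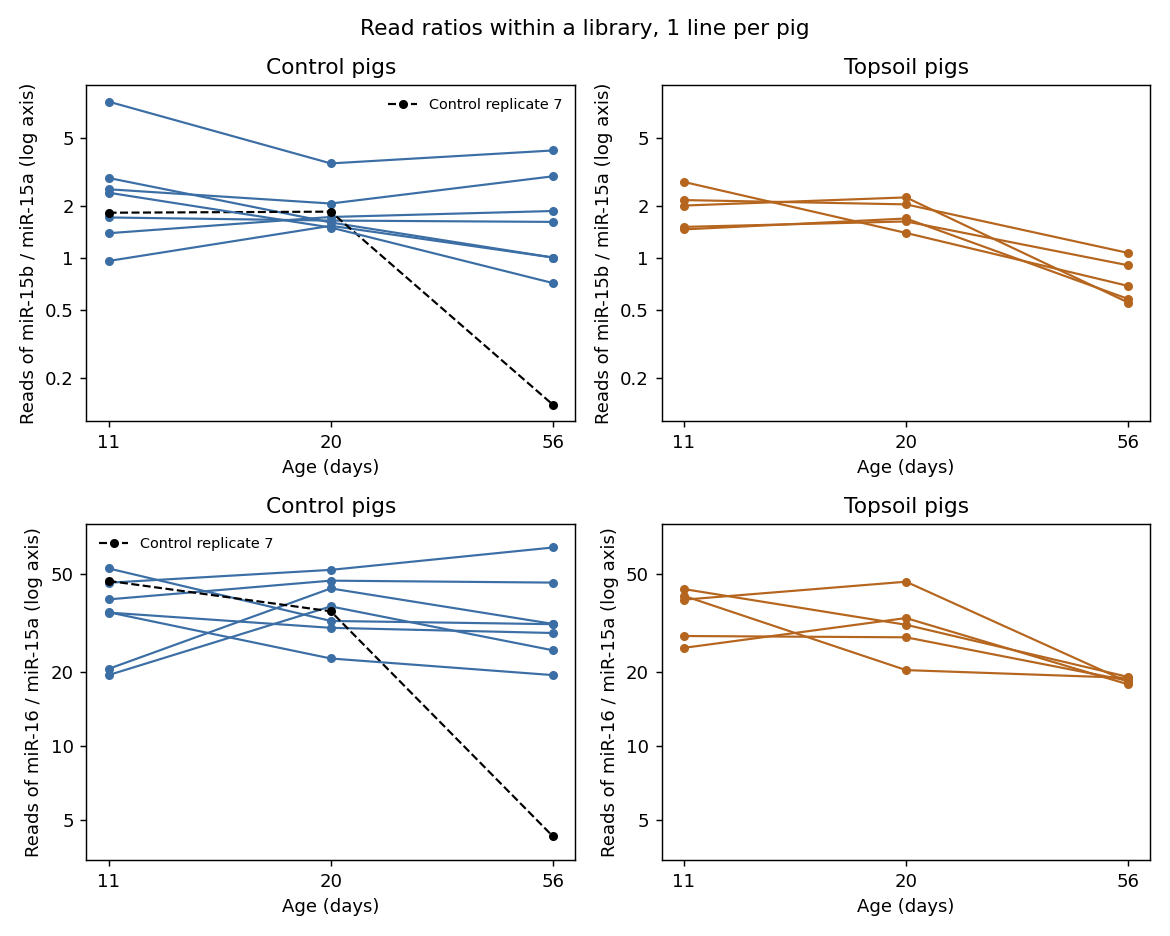
Read ratios within a library on log axes, by age in days, with 1 line per pig. The upper panels show miR-15b to miR-15a and the lower panels miR-16 to miR-15a, control pigs left and topsoil pigs right. The dashed line is control replicate 7, which drops to 0.141 and 4.27 at day 56, and the topsoil lines of the lower panel meet between 17.8 and 19.04.

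miR-195 and miR-497, the pair on chromosome 12, were close to absent. miR-195 had 109 reads in 12 of 39 libraries and miR-497 had 8 reads in 3 libraries, so neither was tested. miR-195 was read in 0 of 13 libraries at day 11, in 3 at day 20 and in 9 at day 56, among them 5 of 5 topsoil libraries with 10, 9, 5, 3 and 4 reads and 4 of 8 control libraries with 2 to 23 reads. Summed over libraries, this was 1.13 RPM without miR-486 at day 20 and 1.62 at day 56, with 95% exact Poisson intervals of 0.748 to 1.65 and 1.29 to 2.01. The 0 reads at day 11 came from 15960348 reads other than miR-486 against 50721998 at day 56, and allow up to 0.188 RPM without miR-486 when 3 reads are taken as the limit, or 0.231 as the upper end of the exact Poisson interval used for the other ages. These intervals cover counting error only, not the spread between pigs. Of the 27 reads at day 20, 14 came from topsoil replicate 3, and without that library, a choice made after seeing the data, the day 20 value was 0.580 (0.309 to 0.993). At day 56 the value was 1.23 without control replicate 6, which had the most reads. With no filter on low counts, edgeR called miR-195 in all pigs from day 11 to day 56 (adjusted p = 0.0145), in a fit that called 56 of 317 miRNAs, but no fold is given since every day 11 library was at 0. miR-497 was read at day 56 only, with 0.158 RPM without miR-486 (0.0681 to 0.311), and 6 of its 8 reads came from topsoil replicate 4, without which the value was 0.0427 (0.00517 to 0.154), while the exact Poisson interval for the 0 reads of day 11 reached 0.231, so a difference with age was not detectable at this depth.

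Other names that were looked up beside the family, whose sequences were not matched here, were as sparse. miR-424-5p, made in many tissues from a cluster with miR-503, was read in 0 of 13 libraries at day 11, 2 at day 20 and 7 at day 56. miR-503 was read in 0, 2 and 9 libraries. miR-6782-3p was read in 3, 6 and 7 libraries. Reads other than miR-486 were also most numerous at day 56, 50721998 against 23796361 at day 20, and the part of depth in these counts was not tested. miR-503 had 3 reads at day 20, all in control libraries, and 25 in control and 17 in topsoil libraries at day 56. miR-322 was not in the table.

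Marker miRNAs moved with age too, given first on the upper-quartile scale. Of the red cell markers miR-486, miR-451 and miR-144, 3 of 3 fell between day 20 and day 56 in control pigs and 1 of 3, miR-486, in topsoil pigs, where 14 and 7 of all 209 miRNAs were called lower. Their summed level went from between 343140 and 3751500 CPM to between 46758 and 808940 in control pigs, and from between 450140 and 4374500 to between 33908 and 219010 in topsoil pigs. That sum is nearly all miR-486, with a mean of 7442532 reads per library against 5241 of miR-451 and 138 of miR-144. It therefore does not describe the other markers. Over all pigs from day 11 to day 56, 3 of 3 fell. With TMM, library totals without miR-486 and DESeq2, 3 of 3 also fell in control pigs and in all pigs over these days, while in topsoil pigs 1 of 3 fell with the former pair and 3 of 3 with DESeq2. On library totals 0 of 3 were called in control pigs, and 1 of 3, miR-486, in topsoil pigs and in all pigs, where miR-451 stood at 0.36 (log2, adjusted p = 0.544 by edgeR). From day 11 to day 56 in all pigs, back on the upper-quartile scale, 2 of 4 lymphocyte markers rose (miR-150 by 0.87 and miR-181a by 1.03, log2), as did 1 of 2 leukocyte markers (miR-142-5p, 1.55). The other lymphocyte markers were not called and went in different directions. miR-155-5p changed by 0.86 (adjusted p = 0.587 by edgeR) and miR-342 by -0.20 (adjusted p = 0.659 by edgeR). The myeloid marker miR-223 changed by 0.60 (adjusted p = 0.211 by edgeR), and of the platelet and vascular markers 1 of 4 tested fell (miR-143-3p, by 1.66), where 36 of all 209 miRNAs were called higher and 17 lower. On library totals 4 of 4 lymphocyte, 2 of 2 leukocyte, 1 of 1 myeloid and 2 of 4 platelet and vascular markers were called higher, and none of these lower, where 161 of all 209 miRNAs were called higher. The part of these shifts in the changes of miR-15a and miR-15b was not tested.

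The miRNAs that each member followed most closely across libraries were shared in part, and differences between members were not tested. Spearman correlations over the 39 libraries on log2 CPM are descriptive, since pigs, ages and the scaling are shared by all points. miR-16 was most like miR-30e-5p (0.861), miR-22-3p (0.802) and miR-186-5p (0.790), and least like the lymphocyte marker miR-342 (-0.713). miR-15a was most like miR-186-5p (0.774), miR-142-3p (0.680) and miR-107 (0.641), and least like miR-143-3p (-0.646). miR-15b was most like the red cell miRNA miR-451 (0.606), then miR-192 (0.493) and miR-148a-3p (0.424), and least like the lymphocyte marker miR-150 (-0.477). Of the other red cell markers, miR-144 had 0.413 with miR-15b and miR-486 had 0.139, which ranked 58th of 208. With miR-16, miR-451 had 0.478, miR-144 0.488 and miR-486 -0.301. With miR-15a these were 0.152, 0.221 and -0.476.

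Among themselves, miR-15a and miR-16 had a correlation of 0.638, miR-15b and miR-16 of 0.293, and miR-15a and miR-15b of 0.067. In RPM without miR-486 these were 0.715, 0.564 and 0.278. On that scale miR-15b was most like miR-451 (0.815) and miR-144 (0.724), both of the red cell lineage, had 0.284 with miR-486, and was still least like miR-150 (-0.635). miR-451 itself had a median of 3873 RPM without miR-486 in control pigs at day 20 (1360 to 11184) and 719 at day 56 (222 to 1341), and in topsoil pigs 1887 (872 to 4402) and 698 (437 to 1721).

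**Figure D4:**
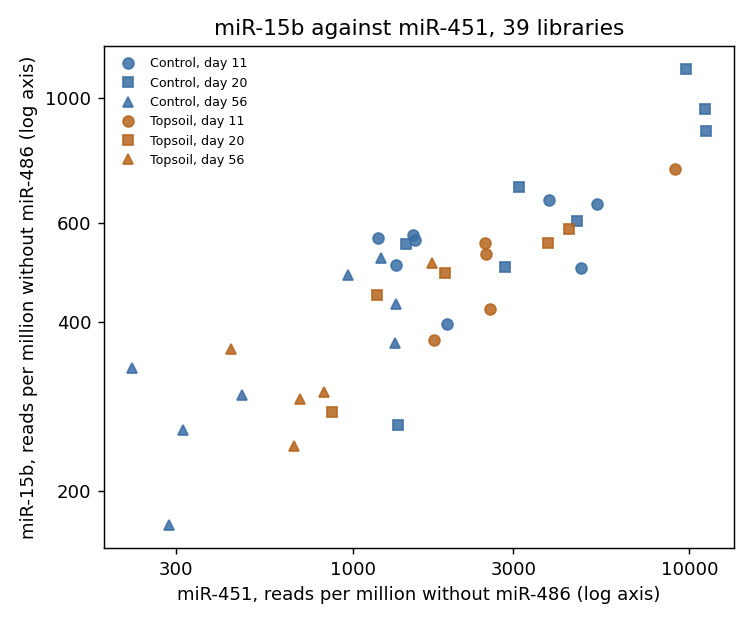
miR-15b against miR-451 in the 39 libraries, both as RPM without miR-486, on log axes. Colour gives the treatment and symbol the age in days, and the day 56 libraries lie towards the lower left. The Spearman correlation on this scale was 0.815, and miR-16, not shown, had 0.690 with miR-451.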

How the data were processed

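Small RNA was sequenced from PBMCs of 8 control and 5 topsoil pigs at day 11, day 20 and day 56. Per the study's methods, the authors trimmed reads with Trim Galore 0.4.5 and checked them with FastQC 0.11.3, then quantified miRNAs with miRDeep2 on the Sscrofa11.1 genome and deposited raw read counts per miRNA. The deposited mRNA counts were not used. Collapsing of PCR duplicates was not given in the sources used here, so intervals cover counting error only.

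For each of the 457 mature names the entry with the largest total was kept. Counts were fitted with edgeR 4.0.16 (R 4.3.3), by the quasi-likelihood test, on library sizes scaled by the 75% quantile, for the 209 miRNAs that were read in 17 or more libraries and averaged over 2 reads. The fit over 39 libraries had pig as a block, age, RNA quality (RQI) and treatment by age. Treatments were also compared at each age with RQI. P-values were adjusted by Benjamini-Hochberg over the 209 miRNAs, with a threshold of 0.10. Read ratios had 0.5 added to each count and were tested by exact permutation (scipy 1.17.1). Totals of 2570910 to 14311898 counts over all entries, and 389906 to 6343113 reads other than miR-486 with 1 entry per name, set the precision.

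The members, marker lists and tests were chosen with earlier results of these data known. Named miRNAs were the members, miR-424-5p, miR-503, miR-322 and miR-6782-3p by name, the 3 miRNAs most like each tested member and the 1 least like it, miR-486, and the marker lists (erythroid miR-486, miR-451 and miR-144; lymphocyte miR-150, miR-342, miR-155-5p and miR-181a; myeloid miR-223; leukocyte miR-142-3p and miR-142-5p; platelet and vascular miR-126-3p, miR-126-5p, miR-143-3p, miR-145-5p and miR-199a-3p). Within a treatment, equal replicate numbers marked 1 pig at its 3 ages. Deviations from group means had a mean correlation of 0.0445 over 39 pairs of libraries of 1 pig and 0.00116 over 228 pairs of different pigs.

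Alternatives were TMM scaling, library totals with and without miR-486, DESeq2 1.42.0, limma voom 3.58.1 with pig as a random effect plus sex and parity, other filters, no RQI, no block, leaving out each pig, and a pseudocount of 1 in ratios. The fit was tested on simulated counts. Mature and hairpin sequences were read from the Sscrofa11.1 genome at RefSeq positions.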

Additional observations from a re-analysis of the deposited data

Results flagged for a closer look

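Of 36 groups of levels and ratios examined for a sample far from the others, 3 stood out, where chance gives about 1 in 20. The level of miR-15a in control replicate 7 at day 56 was 435 CPM, and the next highest of the 8 control libraries was 117 CPM. This was the library with the lowest total, and its part in the value was not tested. The ratio of miR-15b to miR-15a was 8.09 in control replicate 1 at day 11, with 2.92 as the next highest. In the same pig at day 20 the ratio was 3.54, with 2.07 as the next highest.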

How the results depend on the processing

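Control pigs from day 11 to day 20 had 0 members called, and 1 (miR-16) with limma voom, where 28 of 209 miRNAs were called. For control pigs from day 20 to day 56 the 1 member called became 0 with TMM scaling, library totals, no filter on low counts or a mean of at least 10 reads, and 2 (miR-15b and miR-16) with DESeq2 or library totals without miR-486, where 40 and 29 of all 209 miRNAs were called. For topsoil pigs over the same days 0 became 3 on library totals, where 106 of all 209 miRNAs were called. For all pigs from day 11 to day 56, 1 became 3 on library totals, where 162 of 209 were called, 2 with DESeq2 (miR-15a, and miR-15b lower, where 64 of 209 were called) and 2 with no filter (miR-15a and miR-195, where 56 of 317 were called). On library totals without miR-486 the count was again 1, where 42 of 209 were called, but it was miR-15b (-0.66, adjusted p = 0.0304 by edgeR) and not miR-15a (0.53, adjusted p = 0.218). miR-15b reversed on library totals, to 0.19 in control pigs and 1.90 in topsoil pigs from day 20 to day 56 and to 1.69 in all pigs from day 11 to day 56. miR-486 is part of those totals and its share fell with age.

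Leaving out 1 pig at a time gave 0 to 1 members called in control pigs from day 11 to day 20 (1 without control replicate 5), 0 to 1 in control pigs from day 20 to day 56, 0 to 1 in topsoil pigs from day 20 to day 56 (1 without control replicate 6) and 2 to 4 ratios called (4 without control replicate 7). Without the pig block, the count of members called was the same in every comparison, with miR-15b in control pigs at -0.71 (adjusted p = 0.0378 by edgeR). Of all miRNAs tested, the number called ran over the alternatives and left-out pigs from 0 to 28 in control pigs from day 11 to day 20 (11 in the report), from 7 to 40 in control pigs and from 5 to 106 in topsoil pigs from day 20 to day 56 (26 and 20) and from 0 to 8 between treatments at day 20 (2). From day 11 to day 56 in all pigs, 36 were called higher and 17 lower, against 161 and 1 on library totals. All other counts of members called stayed within 1.5 times under the alternatives run. With 5 topsoil pigs and SEs of 0.33 to 0.43 for the members from day 20 to day 56, changes of that order could not be resolved.

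Other values that changed sign were not called in either fit, and all are log2 changes. On library totals, miR-16 in control pigs from day 20 to day 56 was 0.42 and miR-15b between treatments at day 11 was -0.23. On library totals without miR-486, miR-15a in control pigs from day 20 to day 56 was -0.21, miR-16 in topsoil pigs over those days -0.023, miR-16 in all pigs from day 11 to day 56 -0.26, miR-15b between treatments at day 11 -0.12 and miR-15a between treatments at day 56 -0.037. With DESeq2, miR-16 was -0.13 in topsoil pigs from day 20 to day 56 and -0.21 in all pigs from day 11 to day 56, and at day 56 between treatments miR-15a was -0.0078 and miR-15b -0.018. With limma voom, miR-15a in control pigs from day 20 to day 56 was -0.017 and miR-15b between treatments at day 56 -0.058. For miR-16 in all pigs from day 11 to day 56, TMM gave -0.092, no filter -0.025, a mean of at least 10 reads -0.053 and no replicate block -0.030. For miR-15b between treatments at day 11, no filter gave -0.092 and a mean of at least 10 reads -0.0029. Between treatments at day 56, miR-15a was -0.034 with TMM, -0.13 with no filter, -0.034 without RQI and -0.030 with no block, and miR-15b -0.11 with no filter, -0.066 without RQI and -0.055 with no block. The cause of these changes was not tested.

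Leaving out 1 pig at a time also turned the sign of values that were not called. From day 11 to day 20 in topsoil pigs, miR-15a ran from -0.28 to 0.19, miR-15b from -0.21 to 0.15 and miR-16 from -0.52 to 0.19. miR-15a in control pigs from day 20 to day 56 ran from -0.36 to 0.29, and miR-16 in all pigs from day 11 to day 56 from -0.074 to 0.17. Between treatments, miR-15b ran from -0.073 to 0.21 and miR-16 from -0.055 to 0.58 at day 11, and miR-15a from -0.14 to 0.82 and miR-15b from -0.12 to 0.23 at day 56. Among ratios, miR-16 to miR-15a ran from -0.12 to 0.053 for day 20 minus day 11 and from -0.14 to 0.10 between treatments at day 11, miR-16 to miR-15b from -0.021 to 0.43 and miR-15b to miR-15a from -0.38 to 0.063 between treatments at day 11, and miR-15b to miR-15a from -0.15 to 0.066 between treatments at day 20.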

Other observations

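In topsoil pigs at day 56, the ratio of miR-16 to miR-15a had an SD of 0.041 on the log2 scale over 5 pigs, against 0.433 at day 20 in the same pigs and 1.17 in the 8 control pigs at day 56, or 0.574 in the 7 without control replicate 7. The difference in spread was not tested.

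With the mean of each treatment and age taken off, an alternative chosen after seeing the data, miR-15b and miR-451 had a Spearman correlation of 0.450 over the 39 libraries, miR-15a and miR-186-5p 0.761, and miR-15a and miR-16 0.673. miR-451 had higher values with the other members, 0.607 with miR-16 and 0.553 with miR-15a. miR-144 had 0.582 with miR-16, 0.558 with miR-15a and 0.050 with miR-15b. miR-486 had -0.281, -0.390 and -0.204 in the same order. The points share pigs and the scaling.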
